A study of Mus musculus with 12 samples.

Results

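The genes described here are those by which cells make cholesterol and fatty acids, with the proteins that set the rate of that synthesis. They were listed by name, 34 in all, with earlier results of these data known. Each was found through the accession that its array probe carries, and the brightest probe of a gene stood for it. All 34 are on the array and all passed the filter on dim probes, among 23118 genes or transcripts tested, of which 13810 are named genes. Of the 34, 32 were well above background on all 12 arrays. Insig1 was so on all but 1 WT array. Fads2 passed the filter through the Bach1 KO arrays alone, since it was well above background on 1 DKO, 1 Bach2 KO, 3 Bach1 KO and 1 WT array, so that its differences had little measured level to rest on.

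RNA came from alveolar macrophages, which live in the airspaces of the lung, obtained by bronchoalveolar lavage and flow sorting from female C57BL/6 mice of 8 to 9 weeks. There were 4 genotypes with 3 mice each: mice lacking both Bach1 and Bach2 (DKO), mice lacking Bach2 (Bach2 KO), mice lacking Bach1 (Bach1 KO) and wild type mice (WT). How the alleles were made and in which cells the genes are deleted are not given in the sources used here. Each mouse was read on 1 single-colour Agilent array. A level below is a log2 signal minus the 75th percentile of the same array, and a difference is the first genotype minus the second on that log2 scale, given with its SE. Group means are given with the SD of 3 mice. The threshold was a Benjamini-Hochberg adjusted p under 0.05 in a limma fit over all genes and all 12 arrays.

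Bach1 and Bach2 are related repressors that bind DNA with small Maf proteins. Cholesterol is built from acetyl-CoA by way of mevalonate, squalene and lanosterol, and fatty acids are built from the same acetyl-CoA by carboxylation, chain extension, elongation and desaturation. Both routes are governed by the SREBP factors, which Srebf1 and Srebf2 encode. SCAP carries SREBP to the Golgi for release, and the INSIG proteins hold it back in the endoplasmic reticulum when sterols are plentiful. Alveolar macrophages take up and break down surfactant, the lipid film of the alveoli, and so handle much lipid that they did not make.

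The promoters of these genes were read for the letters that the factors above recognise. RefSeq's table of assembly GRCm38.p6 holds a promoter, 250 bases before to 50 bases after a start, for 27 of the 34 genes. It does not list Fdps, Fdft1, Sqle, Stard4, Scd1, Scd2 or Fads1. Searched on both strands, the core of the sterol regulatory element, TCACNCCAC, stood in 1 of the 27 (3.70%), Hmgcs1, against 1.44% of all 27025 genes in the table. The NF-Y box CCAAT, whose factor works beside SREBP, stood in 22 of the 27 (81.5%), against 41.1% of all genes. The Bach-Maf core GCTGANTCA stood in 1 of the 27, Dhcr7, against 1.37% of all genes. None of these motifs holds the letters of another. Hmgcs1 is shown because it holds the sterol element. Insig1 and Fasn were chosen after their values were seen, since they changed in opposite directions below, and they hold NF-Y boxes and no match to TCACNCCAC in this window. Each line gives the 250 bases before the start, 5′ to 3′ on the gene's strand, and capitals mark TCACNCCAC, CCAAT and its reverse ATTGG. Hmgcs1 is at chr13:119690101-119690350 on the plus strand, Insig1 at chr5:28071162-28071411 on the plus strand and Fasn at chr11:120824548-120824797 on the minus strand.
Hmgcs1: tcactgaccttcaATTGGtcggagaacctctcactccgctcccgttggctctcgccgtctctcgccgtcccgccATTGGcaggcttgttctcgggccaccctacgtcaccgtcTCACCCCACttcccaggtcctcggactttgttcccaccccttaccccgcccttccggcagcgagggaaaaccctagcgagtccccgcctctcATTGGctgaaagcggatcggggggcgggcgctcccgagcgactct
Insig1: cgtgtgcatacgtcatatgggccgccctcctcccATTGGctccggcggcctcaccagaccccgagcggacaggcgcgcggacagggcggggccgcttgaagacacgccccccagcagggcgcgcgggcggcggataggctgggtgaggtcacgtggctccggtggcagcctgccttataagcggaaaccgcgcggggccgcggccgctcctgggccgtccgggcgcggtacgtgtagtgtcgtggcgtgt
Fasn: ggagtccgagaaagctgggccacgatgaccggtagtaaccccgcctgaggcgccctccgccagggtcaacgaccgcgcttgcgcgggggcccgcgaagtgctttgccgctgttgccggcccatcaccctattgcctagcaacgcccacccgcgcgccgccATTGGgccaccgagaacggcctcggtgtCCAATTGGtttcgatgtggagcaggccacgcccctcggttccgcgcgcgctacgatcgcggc
In Hmgcs1 the sterol element began at position -137, with NF-Y boxes at -237, -176 and -45. Insig1 had 1 NF-Y box, at -216. Fasn had boxes at -90, -62 and -59, of which the last 2 overlap. These matches are letters in a window, and no binding was measured here.

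The arrays resembled each other within a genotype, with correlations between 0.940 and 0.988, and of the 59305 non-control spots, 45.2% to 72.4% were well above background on an array. Slide 1 carried every WT and Bach1 KO array with Bach2 KO replicates 1 and 2, slide 2 carried Bach2 KO replicate 3, and slide 3, scanned on another day, carried the DKO arrays. For the DKO arrays, genotype and slide or scan day therefore cannot be told apart. The Bach1 probe was lower in DKO than in WT (difference of -1.44 ± 0.32, adjusted p = 0.00644) and than in Bach2 KO (-1.45 ± 0.32, adjusted p = 0.0338). In Bach1 KO its difference from WT was as large but did not pass (-1.43 ± 0.32, adjusted p = 0.210). The Bach2 probe passed in no comparison (-0.52 ± 1.30 for Bach2 KO against WT, adjusted p = 0.779), so the arrays do not settle the Bach2 labels. The position of either probe relative to its deletion was not given in the sources used here.

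The labelled cell type was checked against 10 alveolar macrophage markers, and all 10 were well above background on all 12 arrays. Their summed linear signal, relative to the 75th percentile, was 338 to 542 in DKO, 365 to 530 in Bach2 KO and 891 to 1456 in Bach1 KO, against 1159 to 1489 in WT. That sum hides uneven changes. Mean levels in DKO, Bach2 KO and WT were -2.56, -0.59 and 5.74 for Siglecf and -0.19, 2.62 and 7.91 for Marco. They were -0.72, 2.23 and 7.71 for Krt79 and 0.05, 5.26 and 7.31 for Plet1. Chil3 (7.58, 7.43 and 8.18) and Fabp4 (6.30, 6.35 and 6.93) stayed closer to WT. Itgax in DKO stood above WT (6.49 against 6.41). Of the 10, 6 fell in DKO against WT, where 16.6% of all genes fell and 10.6% rose, and 8 in Bach2 KO against WT, where 24.7% fell and 12.4% rose. Of 4 T cell markers tested, 3 rose in DKO and 3 in Bach2 KO, both against WT. Summed signals were 2.66 to 3.59 in DKO and 1.82 to 2.07 in Bach2 KO, against 0.456 to 0.659 in WT. Cd3d and Cd3g passed the filter through the DKO and Bach2 KO arrays, being well above background on 0 and 1 WT arrays. Cd3e went the other way, with means of -1.64 in DKO and -1.56 in Bach2 KO, against -1.23 in WT. Of 3 monocyte markers tested, 2 rose in DKO and 1 in Bach2 KO. Summed signals were 11.3 to 15.4 in DKO and 4.11 to 5.39 in Bach2 KO, against 0.573 to 0.937 in WT. F13a1 passed the filter through the DKO and Bach2 KO arrays, being well above background on 0 WT arrays. Vcan went the other way, with means of -2.17 in DKO and -1.90 in Bach2 KO, against -1.55 in WT. Both endothelial markers tested, Pecam1 and Cdh5, rose in DKO and in Bach2 KO. Summed signals were 0.657 to 0.782 in DKO and 0.439 to 1.02 in Bach2 KO, against 0.168 to 0.208 in WT. Cdh5 passed the filter through the DKO and Bach2 KO arrays, being well above background on 0 WT and 0 Bach1 KO arrays. Cldn5, also listed, failed the filter, with means of -5.33 in DKO and -5.60 in Bach2 KO, against -5.28 in WT. Cd79b, the 1 B cell marker tested, rose in both as well. It was well above background on 0 WT arrays, and the other listed B cell markers failed the filter. Summed signals of that list were 0.287 to 0.391 in DKO and 0.331 to 0.519 in Bach2 KO, against 0.0733 to 0.172 in WT. Of 6 epithelial markers tested, 1 fell in DKO and 2 in Bach2 KO, with summed signals of 19.3 to 20.2 in DKO and 19.0 to 27.2 in Bach2 KO, against 27.7 to 32.8 in WT. Of 5 neutrophil markers tested 1 rose and 1 fell in each, with summed signals of 10.705 to 43.5 in DKO and 3.42 to 8.25 in Bach2 KO, against 7.61 to 14.7 in WT. Cd247, of the T cell list, and Epx, of the eosinophil list, were well above background on no array. The part of these other cells in the results below was not tested. In such bulk RNA, fewer cells of a type and less RNA per cell cannot be told apart.

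Macrophages labelled as lacking Bach2, alone or with Bach1, had less of the fatty acid synthesis enzymes Acly, Fasn and Elovl6, less of the mevalonate enzymes Mvk, Pmvk and Mvd, and more Insig1. Tm7sf2, Ebp and Scap were lower in both as well. The calls of Elovl6, Mvd and Tm7sf2 held in both genotypes with each array left out. Those of Mvd and Tm7sf2 in Bach2 KO depended on the scaling. In DKO the calls of Insig1, Mvk and Acly were lost in 8, 9 and 6 of the 12 fits that leave out 1 array. In Bach2 KO that of Fasn was lost in 7. The DKO calls of Ebp and Scap were lost in 4 of these fits each, with quantile normalization and with no scaling. In Bach2 KO the Ebp call was lost with quantile normalization and the Scap call with no scaling. With the mean of its probes Acly came to 0.0675 in Bach2 KO and 0.0577 in DKO. The dimmer of these probes had a mean level of -5.39 in WT, against 6.04 for the brighter. The desaturases Scd1, Scd2 and Fads1 were higher where Bach2 alone was lost, and Scd1 and Scd2 were lower in DKO than in Bach2 KO. Loss of Bach1 alone moved no member past the test. In numbers, 6 of the 34 rose and 11 fell in Bach2 KO against WT, where 12.4% of all genes rose and 24.7% fell. DKO macrophages had 1 higher and 11 lower than WT, against 10.6% and 16.6% of all genes. Taken over the 4 genotypes together, 16 of the 34 (47.1%) differed by limma's F test, against 39.3% of all genes, so that the share of members that moved at all was not far from that of all genes.

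**Figure D1:**
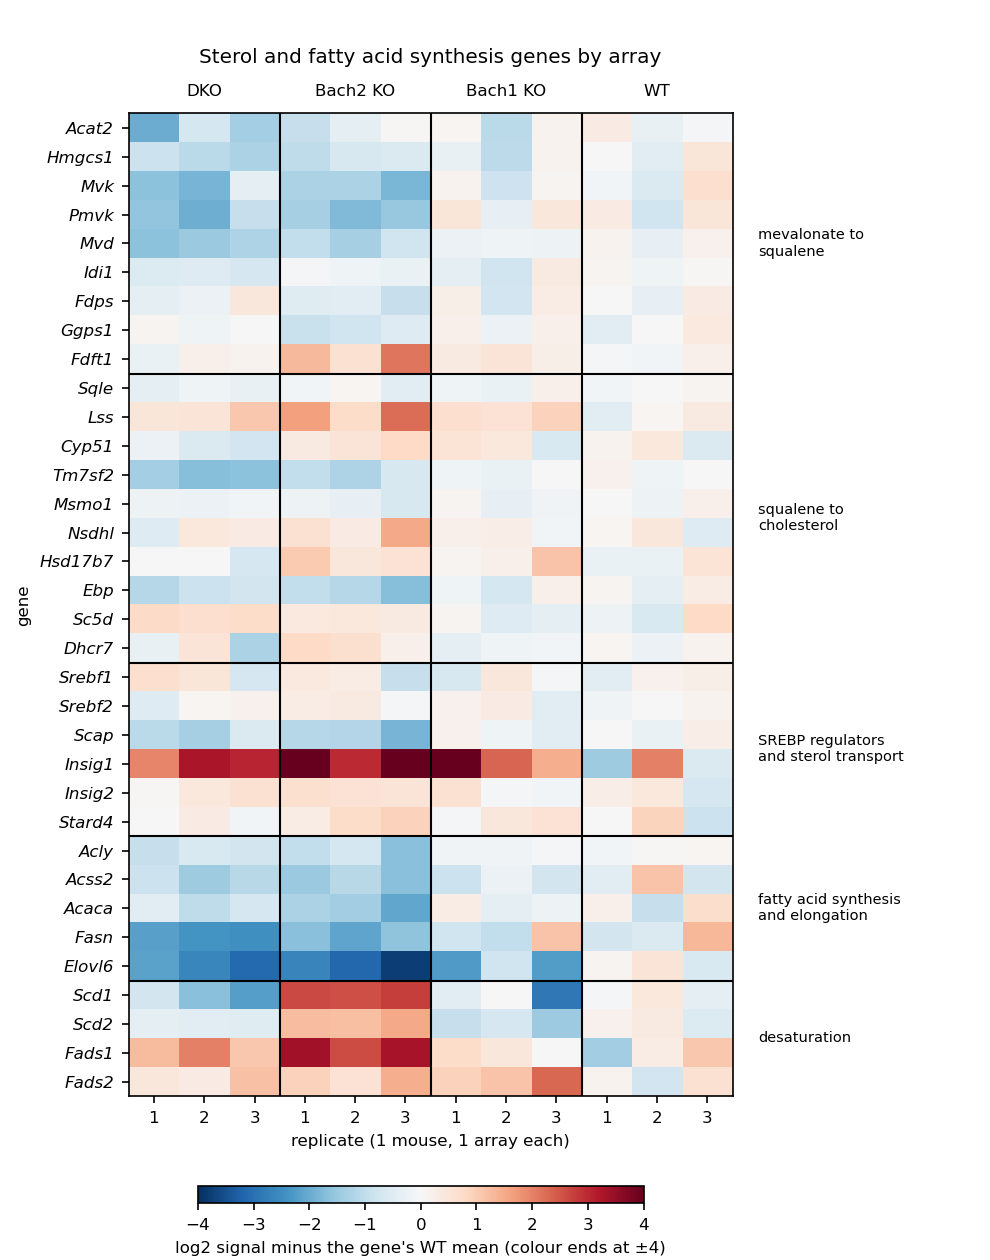
Level of each of the 34 genes (rows, by role) on each of the 12 arrays (columns, by genotype, replicate number below), as log2 signal minus the mean of the 3 WT arrays, with blue lower and red higher than that mean. Scd1, Scd2 and Fads1 are red on all 3 Bach2 KO arrays, and Elovl6 and Fasn are blue on all DKO and Bach2 KO arrays.

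The median difference of the 34 was -0.39 in DKO against WT, where that of all genes was -0.28, and -0.15 in Bach2 KO against WT, where it was -0.30. In DKO against Bach2 KO it was -0.33 for the members and 0.03 for all genes, in DKO against Bach1 KO -0.37 and -0.21, and in Bach1 KO against WT -0.10 and -0.07. With quantile normalization the members' median in Bach2 KO against WT was 0.33, on the other side of 0 from the -0.15 of all genes. Roles differed within these medians. In Bach2 KO against WT, fatty acid synthesis had 0 higher and 5 lower of 5, desaturation 3 higher and 0 lower of 4, the mevalonate route 1 higher and 3 lower of 9, the route from squalene to cholesterol 1 higher and 2 lower of 10, and the regulators 1 higher and 1 lower of 6. Of all genes 12.4% were higher and 24.7% lower in that comparison. For DKO against WT the same roles had 0 and 3, 0 and 0, 0 and 5, 0 and 2, and 1 and 1. Of all genes 10.6% were higher and 16.6% lower there.

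**Figure D2:**
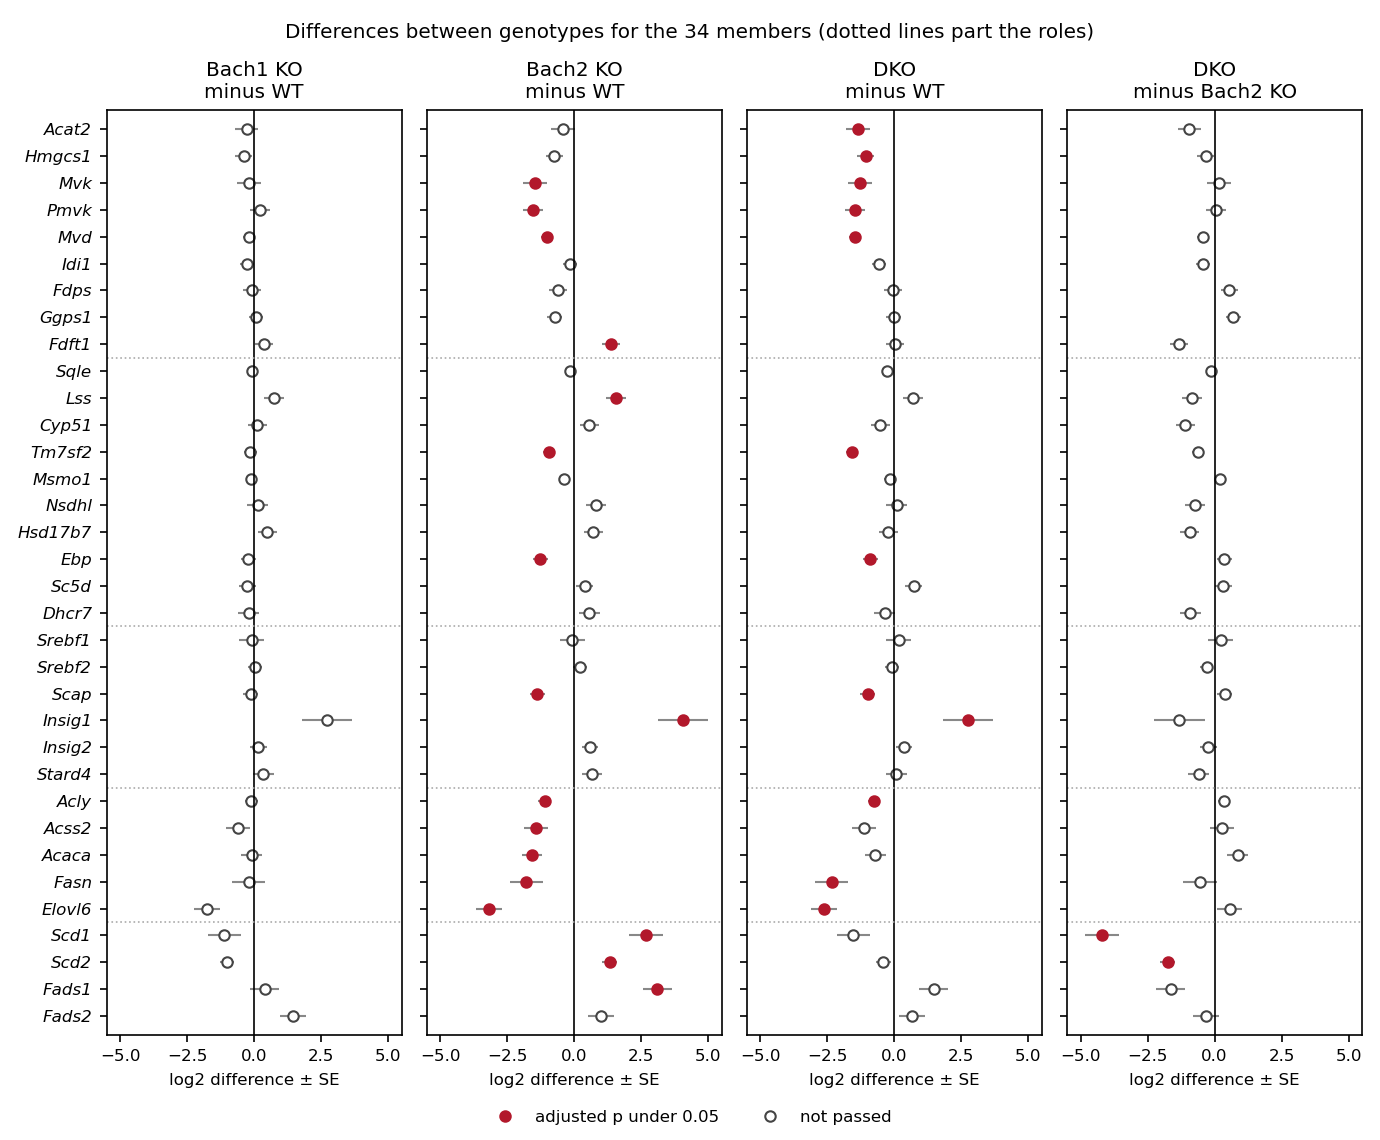
Log2 difference (horizontal axis, point) ± SE (line) of the 34 genes in 4 comparisons, n = 3 mice per genotype, with filled points for an adjusted p under 0.05 and open points for the rest. No point is filled for Bach1 KO against WT, 17 are for Bach2 KO against WT, 12 for DKO against WT and 2, Scd1 and Scd2, for DKO against Bach2 KO.

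Among the regulators, the genes for the SREBP factors themselves did not move past the test, Scap fell and Insig1 rose. Srebf1, whose SREBP-1 products favour fatty acid synthesis genes, had levels of 0.72, 0.53 and -0.64 in DKO, 0.44, 0.34 and -0.88 in Bach2 KO and -0.62, 0.49 and -0.05 in Bach1 KO, against -0.37, 0.22 and 0.26 in WT. The arrays of the 4 genotypes overlapped. Its difference was 0.16 ± 0.47 (adjusted p = 0.810) for DKO against WT and -0.07 ± 0.47 (adjusted p = 0.919) for Bach2 KO against WT, with 95% confidence intervals of -0.86 to 1.19 and of -1.09 to 0.95. Srebf2, whose SREBP-2 product favours cholesterol synthesis genes, had levels of 4.16, 4.76 and 4.85 in DKO, 4.96, 5.04 and 4.65 in Bach2 KO and 4.86, 5.005 and 4.27 in Bach1 KO, against 4.54, 4.68 and 4.82 in WT. These overlapped as well, with a difference of -0.09 ± 0.25 (adjusted p = 0.806) for DKO and 0.21 ± 0.25 (adjusted p = 0.552) for Bach2 KO, both against WT. A dimmer Srebf2 probe did rise in Bach2 KO against WT (1.07 ± 0.32, adjusted p = 0.0227 in a fit over every probe). The brighter probe passed there too with quantile normalization (0.82, adjusted p = 0.0223) and with no scaling (0.90, adjusted p = 0.0356).

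Scap, the escort of SREBP, had levels of 4.001, 3.76 and 4.49 in DKO, 3.95, 3.91 and 3.23 in Bach2 KO and 5.26, 4.93 and 4.66 in Bach1 KO, against 5.09, 4.81 and 5.34 in WT. Every DKO and Bach2 KO array lay below every WT array, and the Bach1 KO arrays overlapped with WT. Scap fell by 1.38 ± 0.28 (adjusted p = 0.00296) in Bach2 KO and fell by 0.997 ± 0.28 (adjusted p = 0.0202) in DKO on the log2 scale, both against WT. The DKO call did not hold once DKO replicate 1 (-0.96, adjusted p = 0.0649), DKO replicate 2 (-0.84, adjusted p = 0.0823), the first WT array (-0.99, adjusted p = 0.0549) or the third WT array (-0.87, adjusted p = 0.0743) was left out. It was also lost with quantile normalization (-0.61, adjusted p = 0.0631) and with no scaling (-0.56, adjusted p = 0.228). The Bach2 KO call held with each array left out and was lost with no scaling (-0.69, adjusted p = 0.104).

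Insig1, which retains SCAP and SREBP and is itself a well-known SREBP target, had levels of -2.30, -0.98 and -1.19 in DKO, -0.18, -1.26 and 0.90 in Bach2 KO and 0.10, -1.93 and -2.78 in Bach1 KO, against -5.67, -2.23 and -4.84 in WT. WT replicate 1, the lowest of the 12, was the 1 array on which it was not well above background. All Bach2 KO arrays lay above all WT arrays, and 1 DKO array and 1 Bach1 KO array lay below the highest WT array. Insig1 rose in Bach2 KO against WT by 4.07 ± 0.94 (adjusted p = 0.00616), and in DKO against WT by 2.76 ± 0.94 (adjusted p = 0.0474). In Bach1 KO it stood at 2.71 ± 0.94 (adjusted p = 0.654) and missed the threshold. The DKO call held only without WT replicate 2, Bach1 KO replicate 1, Bach1 KO replicate 3 or Bach2 KO replicate 3, and leaving out any 1 of the other 8 arrays ended it, with differences of 2.04 to 3.16 and an adjusted p of up to 0.160. The SD of the WT arrays was 1.79, the widest of the 4 genotypes.

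Insig2, the second INSIG gene, had levels of 3.16, 3.53 and 3.72 in DKO, 3.76, 3.70 and 3.63 in Bach2 KO and 3.72, 3.05 and 3.02 in Bach1 KO, against 3.37, 3.54 and 2.43 in WT. No difference of it from WT passed, with 0.35 ± 0.31 (adjusted p = 0.407) for DKO and 0.58 ± 0.31 (adjusted p = 0.159) for Bach2 KO. The 3 WT arrays were wider apart than the 3 Bach2 KO arrays. In Bach2 KO against WT Insig2 did pass with quantile normalization (0.97, adjusted p = 0.0259) and with no scaling (1.28, adjusted p = 0.0184). A dimmer Insig2 probe rose in DKO against Bach1 KO (1.78 ± 0.46, adjusted p = 0.0150 in a fit over every probe). Stard4, a carrier of cholesterol between membranes, had mean levels of 1.95 ± 0.23 in DKO, 2.54 ± 0.32 in Bach2 KO and 2.22 ± 0.33 in Bach1 KO, against 1.89 ± 0.88 in WT, and none of its differences passed.

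The mevalonate route opens with Acat2, which joins 2 acetyl-CoA, and Hmgcs1, which adds the third. Acat2 had levels of -2.48, -1.18 and -1.84 in DKO, -1.40, -0.85 and -0.44 in Bach2 KO and -0.41, -1.55 and -0.34 in Bach1 KO, against -0.14, -0.79 and -0.52 in WT. All DKO arrays were below all WT arrays, while the Bach2 KO and Bach1 KO arrays overlapped with them. Hmgcs1 had levels of 5.03, 4.81 and 4.61 in DKO, 4.86, 5.26 and 5.30 in Bach2 KO and 5.60, 4.84 and 6.03 in Bach1 KO, against 5.87, 5.43 and 6.36 in WT. Its DKO and Bach2 KO arrays lay below all WT arrays. Acat2 fell in DKO against WT by 1.35 ± 0.44 (adjusted p = 0.0400) and Hmgcs1 fell by 1.07 ± 0.32 (adjusted p = 0.0268) on the log2 scale. Neither passed in Bach2 KO against WT, with -0.41 ± 0.44 (adjusted p = 0.484) for Acat2 and -0.75 ± 0.32 (adjusted p = 0.0843) for Hmgcs1. The DKO calls rested on single arrays. Acat2 did not pass without WT replicates 1 or 3, Bach2 KO replicate 2 or DKO replicates 1 or 3 (-1.37 to -1.03, adjusted p of up to 0.154). Hmgcs1 did not pass without WT replicates 1 or 3 or DKO replicates 2 or 3 (-1.08 to -0.83, adjusted p of up to 0.106), nor with quantile normalization (-0.55, adjusted p = 0.156). With no scaling neither passed, with -0.91 (adjusted p = 0.1502) for Acat2 and -0.63 (adjusted p = 0.144) for Hmgcs1.

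The 3 enzymes that turn mevalonate into isopentenyl diphosphate, Mvk, Pmvk and Mvd, were lower in both genotypes without Bach2. Mvk, mevalonate kinase, had levels of 2.19, 1.95 and 3.43 in DKO, 2.54, 2.55 and 1.99 in Bach2 KO and 3.96, 2.98 and 3.93 in Bach1 KO, against 3.71, 3.25 and 4.50 in WT. DKO replicate 3 alone lay within the WT range, and all Bach2 KO arrays lay below it. Pmvk, the kinase of the next step, had levels of 4.50, 4.11 and 5.13 in DKO, 4.73, 4.29 and 4.56 in Bach2 KO and 6.55, 5.74 and 6.53 in Bach1 KO, against 6.39, 5.26 and 6.54 in WT. Every DKO and Bach2 KO array lay below every WT and Bach1 KO array. Mvd, the decarboxylase that ends these steps, had levels of 3.01, 3.18 and 3.44 in DKO, 3.68, 3.34 and 3.88 in Bach2 KO and 4.42, 4.51 and 4.46 in Bach1 KO, against 4.83, 4.34 and 4.85 in WT. Here too every DKO and Bach2 KO array lay below all WT and Bach1 KO arrays.

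Against WT, Mvk fell by 1.30 ± 0.44 (adjusted p = 0.0475) in DKO and fell by 1.46 ± 0.44 (adjusted p = 0.0224) in Bach2 KO on the log2 scale. Pmvk fell by 1.48 ± 0.37 (adjusted p = 0.0121) in DKO and fell by 1.54 ± 0.37 (adjusted p = 0.00790) in Bach2 KO. Mvd fell by 1.46 ± 0.22 (adjusted p = 0.000465) in DKO and fell by 1.04 ± 0.22 (adjusted p = 0.00404) in Bach2 KO. Of these the Mvd calls held with each array left out, as did Pmvk in Bach2 KO. In Bach2 KO, however, Mvd was lost with quantile normalization (-0.53, adjusted p = 0.0738) and with no scaling (-0.35, adjusted p = 0.402), and Pmvk with no scaling (-0.85, adjusted p = 0.0805). Pmvk in DKO did not pass without WT replicate 3 (-1.25, adjusted p = 0.0519) or DKO replicate 2 (-1.25, adjusted p = 0.0549). Mvk in Bach2 KO did not pass without WT replicate 3 (-1.12, adjusted p = 0.0893) or Bach2 KO replicate 3 (-1.27, adjusted p = 0.0825), or with no scaling (-0.77, adjusted p = 0.154). Mvk in DKO did not pass in 9 of the 12 fits that leave out 1 array (-1.35 to -0.96, adjusted p of up to 0.171), the exceptions being WT replicate 2, Bach1 KO replicate 2 and DKO replicate 3. It was also lost with slide as a random block (-1.28, adjusted p = 0.0616), with quantile normalization (-1.05, adjusted p = 0.0660) and with no scaling (-0.86, adjusted p = 0.145). Second probes of Mvk and of Pmvk fell in the same way in Bach2 KO against WT (-1.28 ± 0.38, adjusted p = 0.0238, and -1.31 ± 0.37, adjusted p = 0.0175, in a fit over every probe).

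The steps that join the isoprene units gave another picture. Fdft1, squalene synthase, which commits the route to sterols, had levels of 2.41, 2.89 and 2.82 in DKO, 3.98, 3.28 and 4.83 in Bach2 KO and 3.03, 3.18 and 2.90 in Bach1 KO, against 2.60, 2.57 and 2.87 in WT. All Bach2 KO arrays lay above all others, and the DKO arrays overlapped with WT. Fdft1 rose in Bach2 KO against WT by 1.35 ± 0.33 (adjusted p = 0.00842). In DKO against WT the difference was 0.03 ± 0.33 (adjusted p = 0.950), and in DKO against Bach2 KO it was -1.32 ± 0.33 (adjusted p = 0.0525), just short of the threshold. Its second, dimmer probe did not rise in Bach2 KO against WT (-0.51 ± 0.95, adjusted p = 0.705 in a fit over every probe), so the rise rests on 1 probe. Idi1, the isomerase, had mean levels of 4.52 ± 0.07 in DKO, 4.94 ± 0.11 in Bach2 KO and 4.82 ± 0.59 in Bach1 KO, against 5.10 ± 0.14 in WT. Fdps, which makes farnesyl diphosphate, had mean levels of 5.32 ± 0.46 in DKO, 4.77 ± 0.27 in Bach2 KO and 5.30 ± 0.60 in Bach1 KO, against 5.37 ± 0.32 in WT. Ggps1, which makes the longer geranylgeranyl diphosphate, had mean levels of 0.71 ± 0.14 in DKO, 0.01 ± 0.19 in Bach2 KO and 0.80 ± 0.27 in Bach1 KO, against 0.74 ± 0.40 in WT. No difference of these 3 genes passed, and the closest was that of Ggps1 in Bach2 KO against WT (-0.73 ± 0.27, adjusted p = 0.0545).

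From squalene to cholesterol, 1 enzyme rose, 2 fell and 7 did not pass in Bach2 KO against WT, where 12.4% of all genes rose and 24.7% fell. Lss, which closes squalene epoxide into lanosterol, had levels of 0.73, 0.74 and 1.33 in DKO, 1.88, 0.96 and 2.47 in Bach2 KO and 0.92, 0.80 and 1.16 in Bach1 KO, against -0.18, 0.30 and 0.58 in WT. All 3 Bach2 KO arrays and also all DKO and Bach1 KO arrays lay above all WT arrays. Lss rose in Bach2 KO by 1.54 ± 0.37 (adjusted p = 0.00795), while 0.70 ± 0.37 (adjusted p = 0.182) in DKO and a difference of 0.73 ± 0.37 in Bach1 KO, both against WT, did not pass. Tm7sf2, a sterol reductase, had levels of 1.53, 1.19 and 1.25 in DKO, 1.91, 1.66 and 2.27 in Bach2 KO and 2.73, 2.63 and 2.91 in Bach1 KO, against 3.06, 2.73 and 2.91 in WT. All 3 DKO arrays lay below all Bach2 KO arrays, and those below all Bach1 KO and WT arrays. Ebp, the sterol isomerase, had levels of 5.76, 6.03 and 6.16 in DKO, 5.91, 5.76 and 5.19 in Bach2 KO and 6.72, 6.19 and 7.10 in Bach1 KO, against 6.99, 6.49 and 7.19 in WT. Its DKO and Bach2 KO arrays overlapped with each other and lay below all WT arrays.

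Against WT, Tm7sf2 fell by 1.58 ± 0.23 (adjusted p = 0.000324) in DKO and fell by 0.95 ± 0.23 (adjusted p = 0.00738) in Bach2 KO on the log2 scale. Both calls held with each array left out. That in Bach2 KO was lost with quantile normalization (-0.65, adjusted p = 0.0545), with no scaling (-0.26, adjusted p = 0.610) and with the mean of its probes (-0.62, adjusted p = 0.0714). Its dimmer probe fell in DKO (-1.56 ± 0.32, adjusted p = 0.00398 in a fit over every probe) but did not pass in Bach2 KO (-0.28 ± 0.32, adjusted p = 0.521). Ebp fell by 1.27 ± 0.28 (adjusted p = 0.00531) in Bach2 KO, a call that held with each array left out but was lost with quantile normalization (-0.36, adjusted p = 0.1004). In DKO Ebp fell by 0.91 ± 0.28 (adjusted p = 0.0336), which did not hold without WT replicates 1 or 3 or DKO replicates 1 or 2 (-0.93 to -0.76, adjusted p of up to 0.120), with quantile normalization (-0.32, adjusted p = 0.160) or with no scaling (-0.47, adjusted p = 0.0929).

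The other 7 enzymes of this stretch passed in no comparison with WT. Sqle, the squalene epoxidase and a control point of the route, had mean levels of 4.12 ± 0.10 in DKO, 4.25 ± 0.25 in Bach2 KO and 4.31 ± 0.26 in Bach1 KO, against 4.39 ± 0.11 in WT. Cyp51, the lanosterol demethylase, had mean levels of 0.43 ± 0.26 in DKO, 1.52 ± 0.22 in Bach2 KO and 1.09 ± 0.63 in Bach1 KO, against 0.97 ± 0.52 in WT. Msmo1, which removes methyl groups, had mean levels of 5.07 ± 0.06 in DKO, 4.87 ± 0.22 in Bach2 KO and 5.13 ± 0.22 in Bach1 KO, against 5.25 ± 0.20 in WT. These 3 genes lay within a log2 unit of WT in all 3 mutant genotypes. Nsdhl, which acts after Msmo1, had mean levels of 0.67 ± 0.53 in DKO, 1.40 ± 0.62 in Bach2 KO and 0.71 ± 0.21 in Bach1 KO, against 0.59 ± 0.49 in WT. Its second, dimmer probe disagreed, and fell in DKO (-1.59 ± 0.38, adjusted p = 0.0106) and in Bach2 KO (-1.58 ± 0.38, adjusted p = 0.00873), both against WT in a fit over every probe. Hsd17b7, the partner ketoreductase, had mean levels of 1.06 ± 0.37 in DKO, 1.996 ± 0.32 in Bach2 KO and 1.78 ± 0.57 in Bach1 KO, against 1.30 ± 0.47 in WT. Dhcr7, whose product is cholesterol itself, had mean levels of -0.01 ± 0.90 in DKO, 0.90 ± 0.32 in Bach2 KO and 0.15 ± 0.13 in Bach1 KO, against 0.35 ± 0.20 in WT. Sc5d, a sterol desaturase, had mean levels of 4.09 ± 0.06 in DKO, 3.76 ± 0.03 in Bach2 KO and 3.102 ± 0.34 in Bach1 KO, against 3.36 ± 0.72 in WT, and was the 1 member that rose in DKO against Bach1 KO (0.98 ± 0.32, adjusted p = 0.0390). In DKO against WT it passed with quantile normalization (1.03, adjusted p = 0.0132) and with no scaling (1.16, adjusted p = 0.0298). The call against Bach1 KO did not hold without Bach1 KO replicates 2 or 3, Bach2 KO replicates 1 or 2, or any of the 3 DKO arrays (0.86 to 1.01, adjusted p of up to 0.104).

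Fatty acid synthesis was the role in which all members fell in Bach2 KO against WT, 5 of 5, where 24.7% of all genes fell. With no scaling between arrays Elovl6 alone of the 5 still passed. Acly, which supplies cytosolic acetyl-CoA from citrate, had levels of 5.12, 5.43 and 5.32 in DKO, 5.07, 5.35 and 4.37 in Bach2 KO and 5.92, 5.91 and 5.999 in Bach1 KO, against 5.94, 6.09 and 6.11 in WT. Acss2, which supplies it from acetate, had levels of -1.14, -1.71 and -1.39 in DKO, -1.78, -1.40 and -1.95 in Bach2 KO and -1.13, -0.50 and -1.03 in Bach1 KO, against -0.70, 0.87 and -1.01 in WT. For both genes every DKO and Bach2 KO array lay below every WT array. Acaca, the acetyl-CoA carboxylase that commits carbon to fatty acids, had levels of 3.59, 3.05 and 3.38 in DKO, 2.79, 2.66 and 1.98 in Bach2 KO and 4.34, 3.69 and 3.86 in Bach1 KO, against 4.26, 3.14 and 4.76 in WT. All Bach2 KO arrays lay below all others, and the DKO arrays overlapped with WT. Fasn, the fatty acid synthase, had levels of -2.90, -3.13 and -3.16 in DKO, -2.39, -2.83 and -2.32 in Bach2 KO and -1.53, -1.72 and 0.43 in Bach1 KO, against -1.47, -1.31 and 0.61 in WT. Its DKO arrays lay below its Bach2 KO arrays, and those below all Bach1 KO and WT arrays, among which replicate 3 of each stood about 2 log2 units above the others. Elovl6, which extends palmitate to stearate, had levels of -0.06, -0.53 and -1.03 in DKO, -0.54, -1.06 and -1.69 in Bach2 KO and -0.18, 1.31 and -0.14 in Bach1 KO, against 2.19, 2.60 and 1.49 in WT. Every DKO, Bach2 KO and Bach1 KO array of Elovl6 lay below every WT array.

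In Bach2 KO against WT, Acly fell by 1.11 ± 0.23 (adjusted p = 0.00385), Acaca fell by 1.58 ± 0.39 (adjusted p = 0.00838) and Elovl6 fell by 3.19 ± 0.48 (adjusted p = 0.000449) on the log2 scale, the last being 9.12-fold. These calls held with each array left out. Acly was lost with quantile normalization (-0.37, adjusted p = 0.220). Acss2 fell by 1.43 ± 0.45 (adjusted p = 0.0271), but not without WT replicate 2 (-0.85, adjusted p = 0.0687), Bach2 KO replicate 1 (-1.39, adjusted p = 0.0714) or Bach2 KO replicate 3 (-1.31, adjusted p = 0.0867). Fasn fell by 1.79 ± 0.62 (adjusted p = 0.0415), but not without WT replicate 3 (-1.12, adjusted p = 0.155), or without any 1 of the Bach2 KO or DKO arrays (-1.89 to -1.63, adjusted p of up to 0.109).

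In DKO against WT, Acly fell by 0.76 ± 0.23 (adjusted p = 0.0324), Fasn fell by 2.34 ± 0.62 (adjusted p = 0.0163) and Elovl6 fell by 2.63 ± 0.48 (adjusted p = 0.00168) on the log2 scale. The Elovl6 call held with each array left out. That of Fasn did not without WT replicate 3 (-1.67, adjusted p = 0.0563), and that of Acly did not without any 1 of the WT or DKO arrays (-0.83 to -0.67, adjusted p of up to 0.106), with quantile normalization (-0.23, adjusted p = 0.474) or with no scaling (-0.32, adjusted p = 0.322). Acss2 (-1.13 ± 0.45, adjusted p = 0.0812) and Acaca (-0.71 ± 0.39, adjusted p = 0.187) did not pass in DKO. In a fit over every probe, the dimmer probes of Acly (1.25 ± 0.53, adjusted p = 0.0907) and of Acss2 (adjusted p = 0.998) did not pass in Bach2 KO against WT, so those 2 falls rest on 1 probe each. The other Acaca probes did not pass the filter on dim probes. In Bach1 KO the Elovl6 difference from WT was -1.76 ± 0.48 (adjusted p = 0.380), the smallest adjusted p of any member in that comparison.

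Of the 4 desaturation members, Scd1 and Scd2 passed in DKO against Bach2 KO, where 2.12% of all genes were lower. Fads1 and Fads2 did not pass. Genotype and slide or scan day cannot be told apart for the DKO arrays. Scd1, the stearoyl-CoA desaturase that makes oleate, had levels of 0.29, -0.65 and -1.18 in DKO, 3.67, 3.602 and 3.79 in Bach2 KO and 0.58, 0.99 and -1.85 in Bach1 KO, against 0.98, 1.43 and 0.64 in WT. Its 3 Bach2 KO arrays lay close together and more than 2 log2 units above every other array, and Bach1 KO replicate 3 was the lowest of all. Scd2, its close relative, had levels of 2.86, 2.84 and 2.77 in DKO, 4.48, 4.44 and 4.78 in Bach2 KO and 2.32, 2.58 and 1.80 in Bach1 KO, against 3.44, 3.62 and 2.69 in WT. Again all Bach2 KO arrays were above all others, and all Bach1 KO arrays were below all DKO and WT arrays. Fads1, the desaturase that makes arachidonate, had levels of 0.27, 1.02 and 0.07 in DKO, 2.34, 1.60 and 2.30 in Bach2 KO and -0.27, -0.54 and -1.02 in Bach1 KO, against -2.39, -0.71 and 0.07 in WT. All Bach2 KO arrays were above all DKO arrays, and these above all Bach1 KO arrays, while the WT arrays ran from -2.39 to 0.07 and overlapped with both.

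In Bach2 KO against WT, Scd1 rose by 2.67 ± 0.63 (adjusted p = 0.00684), Scd2 by 1.32 ± 0.28 (adjusted p = 0.00394) and Fads1 by 3.09 ± 0.54 (adjusted p = 0.00126), which are 6.36-fold, 2.50-fold and 8.52-fold. In DKO against WT none of them passed, with -1.53 ± 0.63 (adjusted p = 0.0899) for Scd1, -0.43 ± 0.28 (adjusted p = 0.270) for Scd2 and 1.46 ± 0.54 (adjusted p = 0.0647) for Fads1. Scd1 did fall in DKO against WT without Bach1 KO replicate 3 (-1.53 ± 0.37, adjusted p = 0.0108), with the 2 genotypes fitted alone (-1.53 ± 0.45, adjusted p = 0.0447) and when scaled to the array median (-1.68 ± 0.57, adjusted p = 0.0460). Fads1 rose there with WT replicate 3 left out (2.0 ± 0.50, adjusted p = 0.0163) and with no scaling (1.90, adjusted p = 0.0374). Set directly against Bach2 KO, DKO macrophages had 18.4-fold less Scd1 (-4.20 ± 0.63, adjusted p = 0.00399) and 3.35-fold less Scd2 (-1.74 ± 0.28, adjusted p = 0.00583). The 3 rises in Bach2 KO against WT and these 2 falls held with each array left out. Fads1 did not pass in DKO against Bach2 KO (-1.63 ± 0.54, adjusted p = 0.116). Fads2, which acts before Fads1 on the same fatty acids, had mean levels of -5.46 ± 0.46 in DKO, -5.13 ± 0.44 in Bach2 KO and -4.66 ± 0.73 in Bach1 KO, against -6.11 ± 0.70 in WT, of which the Bach1 KO mean was the 1 that rested on 3 arrays well above background.

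**Figure D3:**
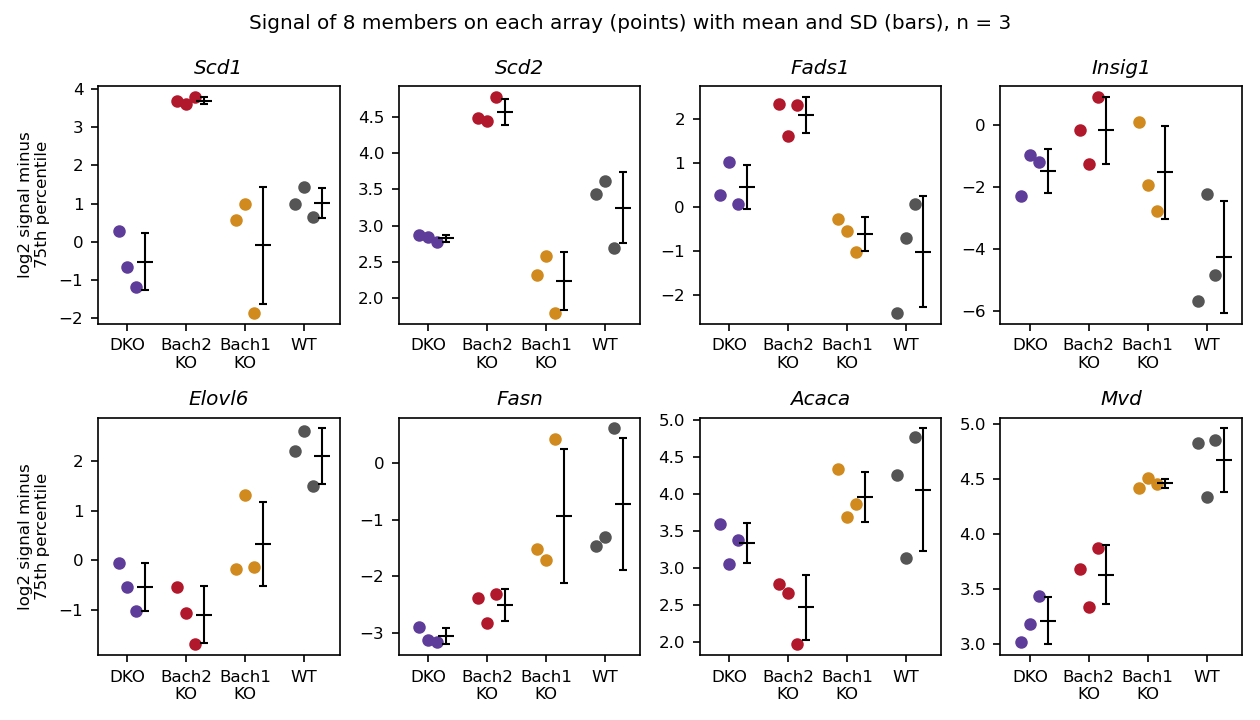
Level of 8 genes on each array (points, log2 signal minus the array's 75th percentile, each panel with its own vertical range), with the mean and SD of the 3 mice per genotype (bars beside the points). Scd1 and Scd2 are highest on the 3 Bach2 KO arrays and lower on the DKO arrays, Elovl6 is lower on all DKO and Bach2 KO arrays than on WT arrays, and Insig1 spreads over more than 3 log2 units among the WT arrays.

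DKO against Bach2 KO asks what the loss of Bach1 adds where Bach2 is already missing. Scd1 and Scd2 fell and no member rose, so 2 of 34 were lower where 2.12% of all genes were, and 0 were higher where 1.45% were. Without adjustment 11 of the 34 had a p under 0.05, against 21.3% of all genes. With those 2 genotypes fitted alone 4 were lower, where 3.98% of all genes were lower and 4.17% higher, Cyp51 (-1.09 ± 0.26, adjusted p = 0.0415) and Fads1 (-1.63 ± 0.34, adjusted p = 0.0273) besides. Fdft1 was lower too without Bach2 KO replicate 2 (-1.69 ± 0.29, adjusted p = 0.0180), with quantile normalization (adjusted p = 0.0401), with the filter on all 12 arrays (adjusted p = 0.0383) and with normexp (adjusted p = 0.0390), and Fads1 without WT replicate 1 (-1.63 ± 0.37, adjusted p = 0.0449). The comparison sets slide 3 against slides 1 and 2.

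Bach1 KO against WT asks the same where Bach2 is present. None of the 34 rose and none fell in the limma fit, where 0.0173% of all genes rose and 0.0433% fell. Without adjustment 4 of the 34 had a p under 0.05, namely Elovl6, Scd2 (-1.02 ± 0.28, adjusted p = 0.392), Insig1 and Fads2, against 5.31% of all genes. For Fads2 that p rests on 1 WT array well above background. Scd1 had a difference of -1.11 ± 0.63 with a 95% confidence interval of -2.48 to 0.26. These arrays all share slide 1, and fitted alone they gave 0 higher and 0 lower too.

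The interaction term, which tests whether losing Bach1 has another effect without Bach2 than with it, passed for no member, where 0.104% of all genes passed above 0 and 0.571% below. This term uses the DKO arrays, for which genotype and slide or scan day cannot be told apart. Without adjustment 9 of the 34 had a p under 0.05 by limma, against 14.8% of all genes. Of the 9, Scd1, Fads1, Fdft1, Lss, Cyp51, Hsd17b7 and Insig1 lay below 0 and Elovl6 above, and the other, Fads2, was well above background on 1 array in each genotype but Bach1 KO. For Scd1 the term was -3.09 ± 0.89 (adjusted p = 0.167). Without Bach1 KO replicate 3, on which Scd1 was the lowest of all arrays, it was -3.97 ± 0.55 and passed (adjusted p = 0.0118). That array and WT replicate 3 were also left out together, a choice made after seeing the data, and the term then was -3.78 ± 0.56 (adjusted p = 0.0198).

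DKO against Bach1 KO asks what the loss of Bach2 does where Bach1 is already missing, though it sets slide 3 against slide 1. In it 1 member rose, Sc5d, and 5 fell, where 10.9% of all genes rose and 15.3% fell. Tm7sf2 fell by 1.44 ± 0.23 (adjusted p = 0.000684), Mvd fell by 1.25 ± 0.22 (adjusted p = 0.00146) and Pmvk fell by 1.69 ± 0.37 (adjusted p = 0.00609) on the log2 scale, calls that held with each array left out. Fasn fell by 2.13 ± 0.62 (adjusted p = 0.0263), but not without Bach1 KO replicate 3 (-1.44, adjusted p = 0.0889) or any 1 of the DKO arrays (-2.21 to -2.08, adjusted p of up to 0.0709). Scap fell by 0.86 ± 0.28 (adjusted p = 0.0397), but not without WT replicate 1, Bach1 KO replicates 1 or 2 or DKO replicates 1 or 2 (-0.87 to -0.70, adjusted p of up to 0.148), with quantile normalization (-0.58, adjusted p = 0.0749) or with no scaling (-0.58, adjusted p = 0.215). Each of these 5 genes also fell in DKO against WT, a comparison that shares the DKO arrays. For Elovl6 the difference in DKO was -0.87 ± 0.48 (adjusted p = 0.201) against Bach1 KO, which did not pass.

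How many members counted as higher or lower depended on the scaling between arrays, and the median of all genes moved as well. In Bach2 KO against WT that median was -0.30 with the 75th percentile, -0.15 with quantile normalization, -0.53 with the array median and 0.39 with no scaling. The members higher and lower were 6 and 11, 9 and 7, 6 and 12, and 14 and 2 in the same order, where 12.4% and 24.7%, 15.2% and 18.8%, 10.2% and 30%, and 20.7% and 9.36% of all genes were. For DKO against WT the median of all genes was -0.28, -0.12, -0.42 and 0.16, and the members higher and lower were 1 and 11, 1 and 6, 0 and 13, and 3 and 5, where 10.6% and 16.6%, 11.9% and 14.9%, 9.31% and 19.4%, and 13.6% and 7.98% of all genes were. In Bach2 KO against WT all 5 fatty acid synthesis genes were below 0 and Scd1, Scd2 and Fads1 above 0 under each of the 4 scalings. With no scaling Elovl6 was at -2.498 (adjusted p = 0.00717) and Scd1 at 3.36 (adjusted p = 0.00536). Acly, Acss2, Acaca and Fasn lay between -1.10 and -0.42 there and did not pass. None of the 37 member values that passed in a comparison changed sign with the scaling.

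**Figure D4:**
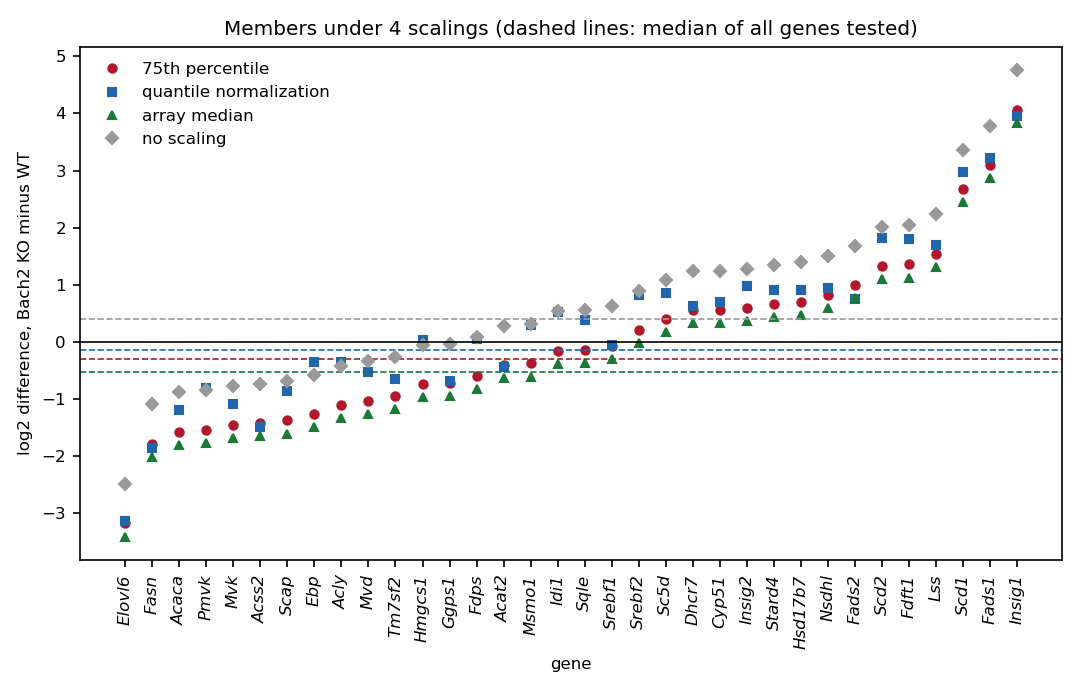
Log2 difference of each of the 34 genes in Bach2 KO against WT (vertical axis) under 4 scalings between arrays (symbols), with genes ordered by the difference under the 75th percentile and dashed lines for the median of all genes tested under each scaling. The order of the genes is similar under all 4 scalings, and with no scaling the whole set lies higher, with the median of all genes at 0.39 in place of -0.30.

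Slide 1 held all WT, all Bach1 KO and 2 Bach2 KO arrays. Within it 4 members were higher in Bach2 KO than in WT, Scd1 (2.62, adjusted p = 0.0405), Scd2 (1.21, adjusted p = 0.0401), Fads1 (2.98, adjusted p = 0.0173) and Fdft1 (0.95, adjusted p = 0.0399), where 7.11% of all genes were. Of the 7 lower members there, where 14.2% of all genes were lower, Elovl6 (-2.89, adjusted p = 0.00761) had the largest difference, and the others were Mvd, Pmvk, Tm7sf2, Ebp, Scap and Acly. Insig1 (3.53, adjusted p = 0.0569), Lss (1.19, adjusted p = 0.0549), Mvk (-1.27, adjusted p = 0.0662), Acaca (-1.33, adjusted p = 0.0671), Acss2 (-1.31, adjusted p = 0.133) and Fasn (-1.89, adjusted p = 0.132) did not pass there. The DKO arrays have no such value, since slide 3 holds no other genotype.

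Other genes of the same routes were listed beside the 34, and 30 of 33 were tested. In Bach2 KO against WT 4 of them rose and 9 fell, where 12.4% of all genes rose and 24.7% fell. Dhdds, which makes dolichol precursors, fell (-1.93 ± 0.35, adjusted p = 0.00163), as did Cyb5a, the electron donor of the desaturases (-1.50 ± 0.28, adjusted p = 0.00209). Of the 30, 5 rose and 9 fell in DKO against WT, where 10.6% and 16.6% of all genes did. Among these were Acat1, a thiolase of mitochondria (-1.83 ± 0.25, adjusted p = 0.000215), Acsl3, an acyl-CoA synthetase (2.65 ± 0.40, adjusted p = 0.000480) and Elovl5, an elongase of polyunsaturated fatty acids (-1.17 ± 0.26, adjusted p = 0.00577). In DKO against Bach2 KO Por, which passes electrons to Cyp51 and Sqle, rose (1.03 ± 0.24, adjusted p = 0.0363) and Acat1 fell (-1.07 ± 0.25, adjusted p = 0.0393). In DKO against Bach1 KO 5 rose and 8 fell, where 10.9% and 15.3% of all genes did.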

How the data were processed

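Each scanner file holds 1 array. Per the file headers, the deposited intensity of a spot is the signal that Agilent Feature Extraction 10.7.3.1 subtracted for background and detrended within the array, while the submitters' processing notes name version 9.1. The log2 values of the deposited series matrix cover 20850 probes, of which 20802 matched a probe here and covered 21 of the 34 genes. Each of its rows has a median of 0 over the 12 columns to within 5e-07, and its columns matched the log2 scanner signal, after the 75th percentile and then each probe's median were taken off, with r above 0.9999. Column medians were -0.25, -0.17 and -0.11 in DKO, -0.04, -0.10 and -0.10 in Bach2 KO, 0.19, 0.08 and 0.19 in Bach1 KO, and 0.09, 0.01 and 0.25 in WT. Scale, centring and direction follow from this match, not from a stated source, and the choice of its probes was not given in the sources used here.

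Here log2 signals less the array's 75th percentile of non-control spots were used. Spots marked as outliers (136 to 733 an array) were left out and spots of a probe averaged. No spot was saturated. A probe had to be well above background on 3 of 3 arrays in some genotype, as 30878 of 55681 were. Accessions gave 26413 probes 1 gene by RefSeq (GRCm38.p6) and left 29268 unnamed. The brightest probe stood for a gene, with at least 2 values per genotype. Of the 34 genes, 13 have several probes.

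Genotype came from the labels. A mean per genotype was fitted over 12 arrays (8 residual degrees of freedom) with lmFit and eBayes with a trend (R 4.3.3, limma 3.58.1, data.table at version 1.17.8), and p-values were adjusted by Benjamini-Hochberg over all 23118 genes or transcripts. Targeted genes and second probes were read from a fit over every probe. The number of arrays limits the precision. The deviations of same-numbered arrays correlated between -0.14 and 0.39, over 0.1 in 6 of 18 pairs. Between DKO and Bach2 KO all 3 were over 0.1 (0.116, 0.123 and 0.118), so a replicate number may pair those arrays, and the block changed no call there. In no other pair of genotypes were all 3 over 0.1, and the labels name no shared litter or day.

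Members and lists were chosen with earlier results of these data known. Values on every array are given for members that passed in any of the 5 pairwise comparisons with an absolute log2 difference of at least 1, and for Srebf1, Srebf2, Scap, Insig1 and Insig2. The others are given by means. Of other genes of the routes, at most 4 per comparison are named, by adjusted p, and some that met this rule are not reported here. Of 7 neutrophil and 4 monocyte markers listed, 1 each was not analysed here. Markers that failed the filter were not tested. Alternatives were other scalings, the series matrix, other filters, the mean of a gene's probes, no trend, slide as a random block, a replicate block, the arrays of slide 1, the 2 genotypes alone, outlier spots kept, a threshold of 0.01, and each array left out. Normexp on median signals with an offset of 50, a fit on 10 arrays that lacked WT replicate 3 and Bach1 KO replicate 3, and every probe on its own were chosen after seeing the data.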

Additional observations from a re-analysis of the deposited data

How the results depend on the processing

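Of the 37 member values that passed in a comparison, all kept their sign under all alternatives but the mean of a gene's probes, where Acly came to 0.0675 in Bach2 KO against WT (adjusted p = 0.881) and 0.0577 in DKO against WT (adjusted p = 0.901). Its 2 probes differ in sign. The dimmer had a mean level of -5.39 in WT, well above background on 2 WT arrays, against 6.04 for the brighter. For Bach2 KO against WT, where 6 members were higher and 11 lower, no scaling gave 14 higher and 2 lower, quantile normalization gave 7 lower and slide 1 alone 7 lower. For DKO against WT, the 1 higher member, Insig1, gave way to 0 with the array median, no filter on dim probes, the filter on all 12 arrays (which removes it), no trend, the replicate block, slide as a random block, an adjusted p under 0.01, the 2 genotypes alone and normexp, while no scaling gave 3 (Insig1, Sc5d and Fads1), the series matrix, which lacks Insig1, 2 (Srebf2 and Fads1), the 10 arrays that lacked WT replicate 3 and Bach1 KO replicate 3 gave 2 (Sc5d and Fads1, with Insig1 at 2.46 and an adjusted p = 0.115), and leaving out 1 array 0 to 2. With quantile normalization the 1 higher member was Sc5d, and Insig1 was lost (adjusted p = 0.0532). The 11 lower there became 6 with quantile normalization, 5 with no scaling, 3 at an adjusted p under 0.01, 7 without both those arrays, and 4 to 12 with 1 array left out. For DKO against Bach2 KO the 2 lower members became 4 with the 2 genotypes alone, and 3 with quantile normalization, the filter on all 12 arrays and normexp (Fdft1 added) and without both those arrays (Cyp51 added, at an adjusted p of 0.0314 there). For DKO against Bach1 KO the 1 higher member became 0 with the array median, no filter, no trend or an adjusted p under 0.01, 2 with the mean of probes, and 0 to 1 with 1 array left out, and the 5 lower became 3 at an adjusted p under 0.01 and 3 to 8 with 1 array left out. For the interaction, the 0 lower became 1, Scd1, without both those arrays, and 0 to 1 with 1 array left out. The F test count of 16 became 9 with no scaling and 9 at an adjusted p under 0.01. The causes of these moves were not tested. With the replicate block 34 of the 37 values still passed, and Acat2 (adjusted p = 0.0550) and Insig1 (adjusted p = 0.0700) in DKO against WT and Scap in DKO against Bach1 KO (adjusted p = 0.0544) did not. The block gave 7 higher and 11 lower in Bach2 KO against WT, 0 and 10 in DKO against WT, and 17 by the F test. For most of these settings, the replicate block among them, the share of all genes that passed was not taken. Those counts of members therefore cannot be set against it. Normexp on mean signals was not run, since the files hold median signals, and those were used in its place. Dim signal limits Fads2 and, in WT, Insig1.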
